A study of Mus musculus with 79 samples.

Results

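The MHC class II genes of mouse quadriceps were taken as 8 genes chosen by name: H2-Aa, H2-Ab1, H2-Eb1, H2-Ea-ps, H2-DMa, H2-DMb1, Cd74 and Ciita. A gene entered when its symbol was in the array table, and where several probesets shared a symbol the one with the highest mean was to be used. Of the 8 genes, 7 were found, each with 1 probeset, among 22335 gene symbols and 35556 probesets, and H2-DMb1 was not. The RNA came from quadriceps of perfused male BXD mice, a family of inbred strains bred from C57BL/6J and DBA/2J, and from both parents. The cohorts ate chow (CD) throughout or switched to a high fat diet (HFD) when 8 weeks old, and all were killed at 29 weeks after an overnight fast. Each array held 1 pool of about 5 animals of 1 strain on 1 diet, so animals of 1 strain cannot be compared and p-values describe the spread between pools. There were 42 CD arrays and 37 HFD arrays from 42 strains, and 37 strains had an array on each diet.

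MHC class II molecules display peptides from engulfed proteins to CD4 T cells. Each is a pair of an alpha and a beta chain: H2-Aa and H2-Ab1 encode the chains of I-A, and the H2-Ea and H2-Eb1 genes encode those of I-E. Cd74, the invariant chain, escorts the pairs from the endoplasmic reticulum to endosomes, where H2-DM, made of H2-DMa and H2-DMb chains, exchanges its remnant for antigenic peptide. Ciita is the transactivator that drives transcription of the whole set. In resting muscle these genes are known mainly from macrophages, dendritic cells and B cells between the fibres, and the b haplotype of C57BL/6 mice is known for a defective Ea gene, whereas the d haplotype of DBA/2 mice has a working one.

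The class II genes are known to share short promoter elements, the X and Y boxes, on which the Ciita complex assembles. Promoter windows of 250 bases before to 50 bases after a start site were matched by symbol in a RefSeq table of build GRCm38.p6, which covered 4 of the 8 genes, 3 of them with a probeset. The 150 bases before the start of H2-Aa (chr17:34287824-34287973, minus strand), H2-Eb1 (chr17:34305717-34305866, plus strand) and the first of 2 windows of H2-DMa (chr17:34122682-34122831, plus strand) are shown, because these 3 members had both a window and a probeset. Capitals mark the letters GATTGG of the Y box core and AACNGATG of an X box core on either strand.
H2-Aa: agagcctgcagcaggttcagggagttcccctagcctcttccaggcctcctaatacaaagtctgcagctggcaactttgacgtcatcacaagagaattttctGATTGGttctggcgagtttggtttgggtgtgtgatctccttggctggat
H2-Eb1: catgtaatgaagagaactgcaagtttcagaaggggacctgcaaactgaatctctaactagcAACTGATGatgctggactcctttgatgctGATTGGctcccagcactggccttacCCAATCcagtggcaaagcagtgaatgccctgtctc
H2-DMa: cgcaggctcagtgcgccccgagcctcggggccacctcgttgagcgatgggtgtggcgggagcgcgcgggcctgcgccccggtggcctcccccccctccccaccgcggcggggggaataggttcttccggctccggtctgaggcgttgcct

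The H2-Eb1 window held the X box letters from position -89 and the Y box letters from position -60, with a second Y box core on the opposite strand from position -35, counted from the start site. The H2-Aa window held the Y box letters from position -49 and no match to the X box letters. The first H2-DMa window held neither, and its second window held the Y box letters from position -199. Other start sites of H2-DMa were not examined, so these windows need not be its main promoter. H2-DMb1, the partner chain of H2-DMa with no probeset here, held the X box letters from position -92 and the Y box letters from position -62. Of all 32851 promoter windows of the same 300 bases, 16.1% held GATTGG and 2.32% held AACNGATG on either strand. These matches are descriptions of letters and were not tested for binding.

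The unit is a score, scaled per array to an average of 8.0 with a standard deviation of 2.0. The scores behave as a log-type measure whose base was not stated, so folds are nominal, taking 1 unit as a doubling. Levels of different probesets were not compared. As a check of the tissue label, the mean of 8 muscle genes, among them Acta1 and Ckm, lay between 14.404 and 14.713 units on every array. The titles gave 2 array batches, and the batch term had a p below 0.05 for 0 of 35556 probesets in limma, with a smallest unadjusted p of 0.888 among the members. Over all probesets the smallest limma p of this term was 0.266, so the scores appear already adjusted for batch. The term therefore gives no measure of batch effects in the raw signal. In 1 strain, BXD63, the arrays went against their diet labels: of the 200 probesets that separated diets best in the other strains, 10 moved in the labelled direction, against 173 to 198 in each of the other 36 strains. Without BXD63 no call for a member changed in the diet comparison, with or without strain as a block, in the cross-diet correlation or in the correlations with Cd74. Ranges and counts of strains keep the labels of BXD63 as given.

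H2-Ea-ps, the alpha chain of I-E, fell into separate levels by strain. On CD the lowest array was at 5.99 units (BXD90), the median at 6.70 and the highest at 10.578 (BXD56). There was no array between 6.81 (BXD101) and 8.476 (DBA/2J), a gap of 1.67 units, with 27 arrays below it and 15 above it. C57BL/6J lay on the low side at 6.595 units and DBA/2J was the lowest of the high side. The other high strains were BXD44, BXD50, BXD56, BXD62, BXD63, BXD68, BXD69, BXD70, BXD73, BXD79, BXD80, BXD87, BXD99 and BXD103. In the mixture fit that served as the cluster rule, a second component lowered the BIC by 82.3 and Ashman's D, the distance of the components in units of their spread, was 8.56. The other 6 members did not meet the rule of a BIC fall of at least 10 on either diet, and the largest fall among them was 0.0619, for H2-Aa on CD.

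The HFD arrays gave the same picture of H2-Ea-ps. The low side ran from 6.28 units (BXD48) to 6.926 (BXD51) and the high side from 9.508 (DBA/2J) to 11.291 (BXD62), a gap of 2.58 units. All 37 strains with both arrays kept their side, 23 low and 14 high. DBA/2J was again the lowest of the high strains, at 9.508 units against 6.648 in C57BL/6J.

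**Figure D1:**
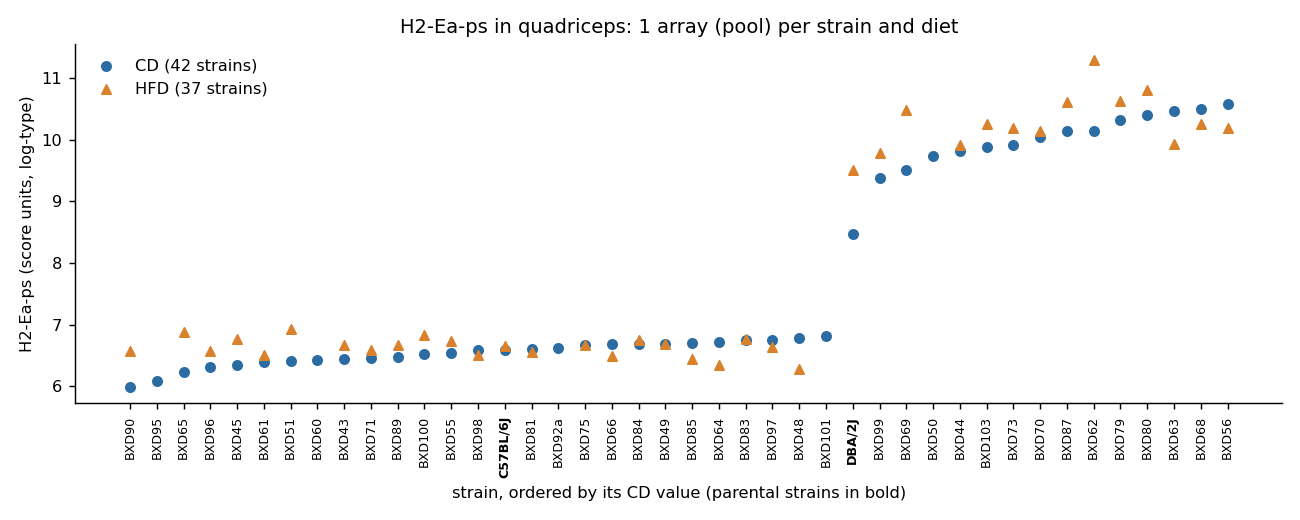
H2-Ea-ps in score units for each strain, ordered by its CD value, with circles for the 42 CD arrays and triangles for the 37 HFD arrays. No array lies between 6.926 and 8.476 units, and each of the 37 strains with both arrays has its points on the same side.

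Within the low side, the CD and HFD values of H2-Ea-ps had a Pearson's r of -0.319 and a Spearman's rho of -0.317 over 23 strains. Within the high side r was 0.526 and rho 0.451 over 14 strains, and r was 0.0469 once the 2 strains most distant from the median were left out, so this relation rested on those strains. These values are descriptions, with no test. The 3 genes outside the set with a pattern most like H2-Ea-ps over the 42 CD arrays, by the size of r among 22335 genes, were Ppp1r11, a regulatory subunit of protein phosphatase 1 (r 0.906), the class I gene H2-Q10 (r -0.88) and Gfer, a sulfhydryl oxidase (r -0.834). Over the 37 HFD arrays, which did not choose them, r was 0.897, -0.833 and -0.79. Since H2-Ea-ps lies on separate levels, these r mostly describe the difference between its sides. Linkage of these genes on the chromosome was not tested.

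The parental strains had 1 array each on each diet, so the parental difference was fitted with a term per strain plus diet and batch over all arrays. Of the 7 members, 1 was called at a limma adjusted p below 0.05, against 1.26% of all 35556 probesets. H2-Ea-ps was lower in C57BL/6J, with a fitted difference of -2.371 units, C57BL/6J minus DBA/2J (SE 0.274, limma adjusted p 1.77e-07). Whether its signal in C57BL/6J lay above background was not tested, so the size of this difference may be a lower bound. In a fit to the 4 parental arrays alone it was -2.37 (limma adjusted p 0.257), and the limma adjusted p ranged from 4.66e-08 to 0.257 over the 6 fits. The fit over all arrays assumes that the parents vary like the other strains.

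The other chains lay in the opposite order in the parents without passing the adjustment. H2-Ab1 was at 10.089 units in C57BL/6J and 9.537 in DBA/2J on CD, and at 9.947 and 8.902 on HFD, a fitted difference of 0.80 units (SE 0.252, limma adjusted p 0.139). H2-Eb1 was at 9.729 and 9.362 on CD and at 9.914 and 8.895 on HFD, for a fitted difference of 0.69 units with an SE of 0.211 (limma adjusted p 0.119). C57BL/6J had the higher value of both genes on both diets. H2-Aa had a fitted difference of 0.403 units (limma adjusted p 0.834), from array differences of 0.041 on CD and 0.765 on HFD. For Cd74 it was 0.49 (limma adjusted p 0.657), from 0.286 on CD and 0.689 on HFD. H2-DMa and Ciita differed by -0.0615 and -0.008 units. The DBA/2J array on HFD was the lowest of 37 for H2-Aa (9.554), H2-Ab1 (8.902) and H2-Eb1 (8.895), whereas on CD it ranked 9, 10 and 11 from the lowest of 42.

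The 2 chains of I-A did not keep a fixed offset over strains. H2-Ab1 minus H2-Aa, a difference of 2 probesets whose zero has no meaning, ran from -0.897 (BXD50) over a median of -0.204 to 0.282 (BXD48) on CD. Of the 15 CD arrays with the lowest difference, 13 came from strains on the high side of H2-Ea-ps. The exceptions were BXD55 and BXD75 among these 15, and BXD69 and BXD103 outside them. On HFD 13 of the 14 lowest came from the high side, and BXD103 again lay outside. All 10 of the highest differences came from the low side on each diet. For H2-Eb1 minus H2-Aa, 11 of the 15 lowest on CD and 12 of the 14 lowest on HFD came from the high side, and 8 of the 10 highest on CD and 9 of the 10 highest on HFD from the low side. These differences met no cluster rule (BIC fall of 0.852 for H2-Ab1 minus H2-Aa on CD), were chosen after the values were seen and were given no test. Whether sequence differences between the parental alleles alter the signal of a probeset was not tested for any member. Strain differences in score need not be differences in RNA level.

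The other class II chains varied over strains without such a gap. H2-Aa had its lowest CD value at 8.999 units (BXD48), its median at 10.205 and its highest at 11.053 (BXD49). The nominal range was 4.15-fold. On HFD the values were 9.554 (DBA/2J), 10.261 and 11.119 (BXD51), a nominal range of 2.96-fold. The CD arrays of BXD48, BXD100 and BXD69 lay below every HFD array, and the other CD arrays lay within the HFD range. In bulk RNA, fewer cells that carry class II and less class II RNA per cell cannot be told apart.

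H2-Ab1, the beta chain of I-A, ran from 9.154 units (BXD63) over 9.81 to 10.868 (BXD49) on CD. BXD63, whose arrays went against their diet labels, was at 9.468 on HFD, and without it the lowest CD value was 9.234 (BXD69). On HFD H2-Ab1 ran from 8.902 over 9.947 to 10.849 (BXD90). H2-Eb1, the beta chain of I-E, ran from 8.988 (BXD48) over 9.50 to 10.194 (BXD90) on CD, and from 8.895 over 9.72 to 10.525 (BXD51) on HFD. BXD49, BXD51, BXD85 and BXD90 were high on both diets, with H2-Ab1 values of 10.868, 10.724, 10.748 and 10.604 units on CD and 10.687, 10.771, 10.8 and 10.849 on HFD. These strains all lay on the low side of H2-Ea-ps. As a description, r with H2-Ea-ps on CD and HFD was -0.542 and -0.664 for H2-Ab1 and -0.399 and -0.541 for H2-Eb1. For H2-Aa it was 0.0367 and -0.0541.

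Cd74, the invariant chain, ran from 9.336 units (BXD48) over 10.424 to 11.066 (BXD49) on CD, a nominal 3.32-fold range, and from 9.778 (BXD61) over 10.571 to 11.37 (BXD90) on HFD, a nominal 3.01-fold range. H2-DMa was less spread, from 7.592 (BXD95) over 8.156 to 8.582 (BXD63) on CD and from 7.868 (BXD61) over 8.415 to 9.072 (BXD90) on HFD. The arrays of BXD63 went against their diet labels, and its HFD array was at 8.299 units. Without this strain the highest H2-DMa value on CD was 8.444 (BXD80). Ciita was the least spread, from 7.663 (BXD103) over 7.918 to 8.179 (BXD80) on CD and from 7.686 (BXD61) over 7.926 to 8.351 (BXD80) on HFD. BXD80 thus had the highest Ciita value on both diets. The Ciita scores lay near the array medians, which ran from 7.783 to 7.922 units. Whether its signal lay above background was not tested, here or in the comparisons below.

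**Figure D2:**
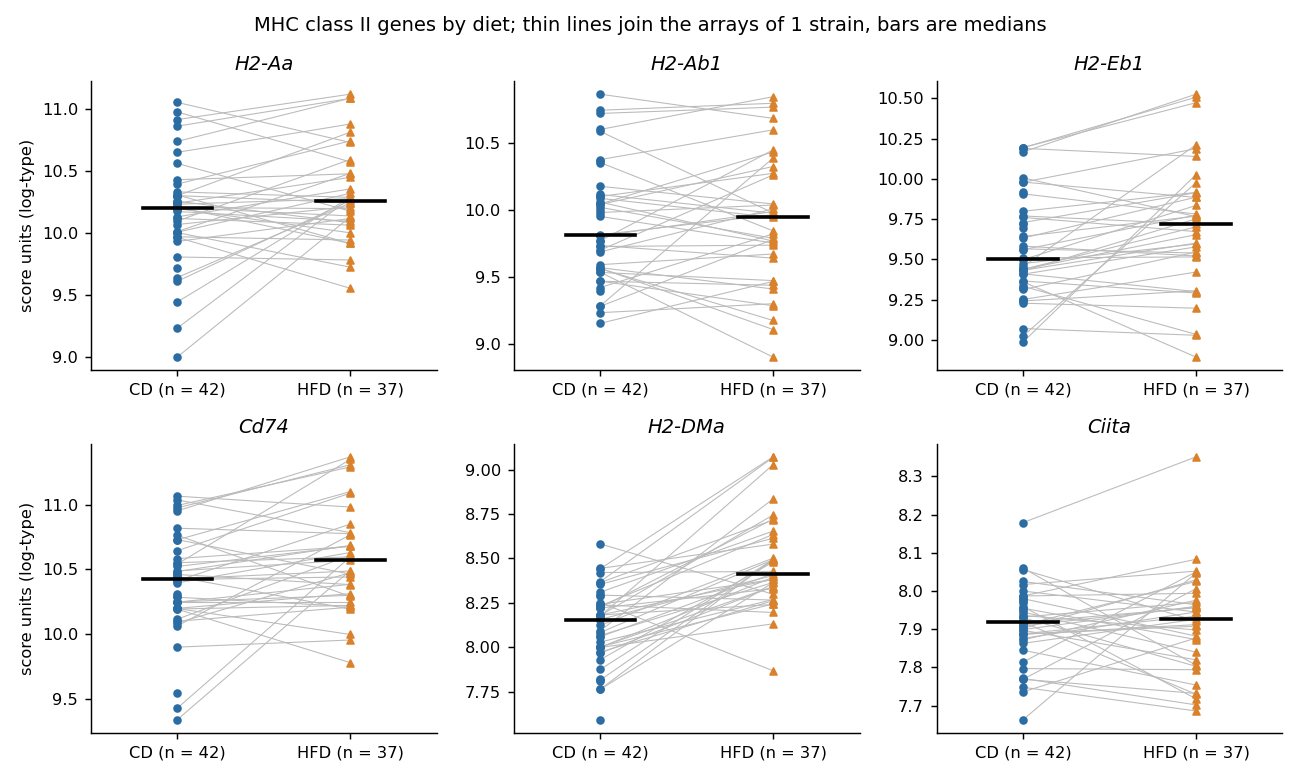
Score units of 6 members on CD (circles, 42 arrays) and HFD (triangles, 37 arrays), with thin lines joining the 2 arrays of a strain and bars at the medians. The diets overlap in each panel, and the median of H2-DMa goes from 8.156 to 8.415 units.

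H2-DMa was the 1 member of 7 that rose on HFD in the fit over all 79 arrays, against 38.1% of all probesets called in either direction and 18.9% called higher. The mean was 8.12 ± 0.216 units (SD, n = 42) on CD and 8.47 ± 0.257 (SD, n = 37) on HFD. The difference was 0.35 units (SE 0.0529, 95% confidence interval 0.248 to 0.459, limma adjusted p 7.57e-08). It was higher on HFD in 33 of 37 strains, with a median change of 0.344, a lowest change of -0.384 (BXD61) and a highest of 0.854 (BXD62). BXD63, whose arrays went against their diet labels, was 1 of the 4 strains with a lower value (-0.283). The difference was 0.343 units in batch 1 alone and 0.362 in batch 2 alone. As the scores appear already adjusted for batch, the closeness of these values is not a separate replication.

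The other 6 members had positive differences that did not pass in this fit. Cd74 differed by 0.19 units (SE 0.0875, 95% confidence interval 0.0202 to 0.368, limma adjusted p 0.0705). H2-Aa differed by 0.14 (SE 0.0896, limma adjusted p 0.214) and H2-Eb1 by 0.14 (SE 0.0793, limma adjusted p 0.168). For H2-Ab1 the difference was 0.0324 with an interval of -0.174 to 0.239. For Ciita it was 0.00289 with an interval of -0.05 to 0.0557. For H2-Ea-ps, whose strains lie on separate levels, it was 0.26 with an interval of -0.516 to 1.04. The median difference of the 7 members was 0.141 units, beside -0.000663 over all probesets.

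Because the labels pair arrays by strain, the same comparison was made with strain as a block over the 37 paired strains, and it called 4 of the 7 members, all higher on HFD, against 40.6% of all probesets called and 20.7% called higher. H2-DMa changed by 0.33 units (limma adjusted p 4.99e-07), Cd74 by 0.17 (limma adjusted p 0.0253), H2-Ea-ps by 0.18 (limma adjusted p 0.0262) and H2-Eb1 by 0.14 (limma adjusted p 0.0255). H2-Aa changed by 0.14 (limma adjusted p 0.0845), and H2-Ab1 and Ciita by 0.0347 and 0.00755. Over all 15 fits of the diet comparison the limma adjusted p ran from 0.0253 to 0.407 for Cd74, from 0.0255 to 0.557 for H2-Eb1, from 0.0112 to 0.808 for H2-Ea-ps and from 1.86e-08 to 0.0113 for H2-DMa.

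**Figure D3:**
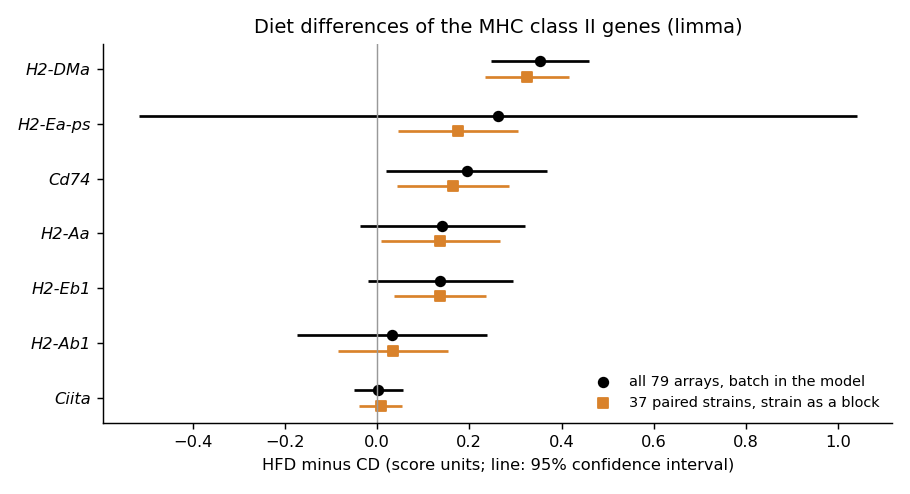
Difference HFD minus CD in score units with its 95% confidence interval for the 7 members, from all 79 arrays (circles) and with strain as a block over 37 strains (squares). H2-DMa lies above 0 in both, and the interval of H2-Ea-ps narrows from -0.516 to 1.04 to 0.0462 to 0.306 with the block.

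The strains BXD48 and BXD100 had the largest increases of all strains in H2-Aa, H2-Eb1 and Cd74. Cd74 was at 9.336 units on CD and 10.49 on HFD in BXD48, and at 9.425 and 10.595 in BXD100, changes of 1.154 and 1.17 units. H2-Aa changed by 1.13 units in BXD48 and 1.049 in BXD100, and H2-Eb1 by 1.038 and 0.951. Their CD arrays also ranked 1 and 3 from the lowest of 42 in the mean of 24 markers of antigen-presenting cells, and 21 and 7 of 37 on HFD. The part of these cells in the change was not tested. Without both strains and with strain as a block, 2 of 7 members were called. Cd74 changed by 0.114 units (limma adjusted p 0.0582) and H2-Eb1 by 0.0912 (limma adjusted p 0.054), H2-Ab1 by -0.00361, and H2-DMa by 0.309 (limma adjusted p 2.17e-06) and H2-Ea-ps by 0.192 (limma adjusted p 0.0168).

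Members did not all move together within strains. All 7 members were higher on HFD in 5 of 37 strains, 6 in 9 strains and 5 in 9 strains, and none was higher in 1 strain. Cd74 was higher in 26 strains, lower in 10 and equal in 1, and H2-Ea-ps was higher in 26 and lower in 11. Among the strains of the low side of H2-Ea-ps, 15 of 23 were higher on HFD, and among those of the high side 11 of 14. The mean change was 0.0927 ± 0.291 units (SD, n = 23) on the low side and 0.316 ± 0.505 (SD, n = 14) on the high side, as a description with no test between them. H2-Eb1 was higher in 23 strains, and H2-Aa, H2-Ab1 and Ciita were each higher in 20. DBA/2J had the most negative change of all strains in H2-Aa (-0.411), H2-Ab1 (-0.635) and H2-Eb1 (-0.467), and the second most positive in H2-Ea-ps (1.032).

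H2-DMa, the member called in the fit over all arrays, was then set beside each other member within strains, as a description with no test because it was chosen for its change. Its change exceeded that of H2-Ab1 by a mean of 0.29 ± 0.39 units (SD, n = 37), in 28 of 37 strains, and that of Ciita by 0.319 ± 0.312 units (SD, n = 37), in 31 strains. Against Cd74 the mean was 0.158 units with 31 strains above 0, against H2-Eb1 0.19 with 28, against H2-Aa 0.191 with 26 and against H2-Ea-ps 0.151 with 25. A unit need not stand for the same fold in different probesets.

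Strains kept their level of the class II chains between diets, to different degrees. After batch means were removed within each diet, 4 of the 6 members without separate levels had a cross-diet Pearson's r past a Benjamini-Hochberg adjusted permutation p of 0.05, against 10.5% of all probesets. The r was 0.707 for H2-Ab1 (permutation p 1e-05, adjusted p 0.000419), 0.661 for H2-Eb1 (permutation p 1e-05, adjusted p 0.000419), 0.555 for Cd74 (permutation p 0.00043, adjusted p 0.00781) and 0.548 for H2-Aa (permutation p 0.00046, adjusted p 0.0082). The rho was 0.69, 0.63, 0.604 and 0.537 in the same order (permutation p 1e-05, 8e-05, 0.00013 and 0.00084). With the 2 strains at the greatest distance from each CD median left out, r was 0.639, 0.598, 0.702 and 0.627. For Cd74 and H2-Aa these 2 strains were BXD48 and BXD100, and for H2-Ab1 and H2-Eb1 they were BXD49 and BXD85.

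H2-DMa and Ciita did not pass. For H2-DMa r was 0.273 and rho 0.225 (permutation p 0.102 and 0.177, adjusted p 0.336 and 0.468). For Ciita r was 0.381 and rho 0.214 (permutation p 0.02 and 0.202, adjusted p 0.125 and 0.501). Without the 2 farthest strains r was 0.283 for H2-DMa and 0.308 for Ciita. Over the 12 strains with both arrays in batch 1, the 17 with both in batch 2 and the 8 with arrays in different batches, r was 0.787, 0.788 and 0.489 for H2-Ab1, 0.901, 0.575 and 0.43 for H2-Eb1, 0.745, 0.647 and 0.381 for Cd74 and 0.688, 0.554 and 0.445 for H2-Aa. For H2-DMa it was 0.383, 0.263 and 0.237, and for Ciita 0.815, -0.0674 and -0.121. The relation thus had the same sign in each subset for every one of these members except Ciita.

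**Figure D4:**
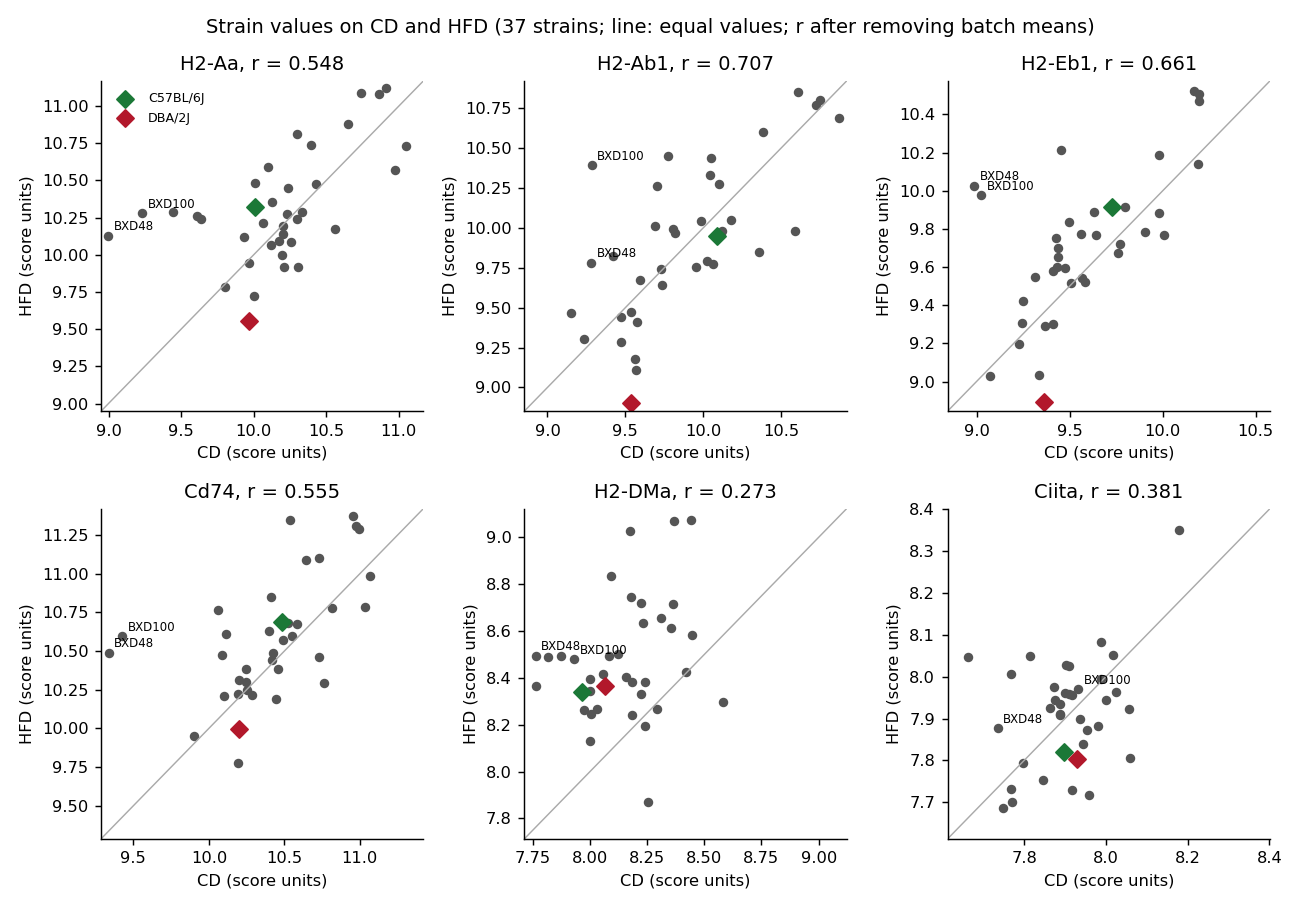
HFD against CD score units for 6 members over 37 strains, with the line of equal values, the parental strains as diamonds and r after removal of batch means. Points follow the line in H2-Ab1 (r 0.707) and scatter in H2-DMa (r 0.273), and BXD48 and BXD100 lie above the line in Cd74 and H2-Aa.

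Members other than H2-Ea-ps were next set against Cd74 over the arrays of each diet, since Cd74 is the shared partner of the chains. On CD 4 of 5 members passed the adjusted permutation test against 0.307% of all probesets, and on HFD 4 of 5 against 0.762%. For H2-Aa r was 0.909 on CD and 0.939 on HFD (permutation p 1e-05 in both, adjusted p 0.0115 and 0.00658), with rho 0.865 and 0.902 (permutation p 1e-05 in both). For H2-Eb1 r was 0.721 and 0.701 (permutation p 1e-05 in both, adjusted p 0.0115 and 0.00658), with rho 0.621 and 0.633 (permutation p 3e-05 and 4e-05). For H2-DMa r was 0.691 and 0.784 (permutation p 1e-05 in both, adjusted p 0.0115 and 0.00658), with rho 0.66 and 0.668 (permutation p 1e-05 in both). For H2-Ab1 r was 0.597 and 0.585 (permutation p 3e-05 and 0.00017, adjusted p 0.0205 and 0.0334), with rho 0.467 and 0.512 (permutation p 0.00183 and 0.00159, adjusted p 0.23 and 0.137).

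Without the 2 arrays farthest from the Cd74 median, r on CD and HFD was 0.863 and 0.926 for H2-Aa, 0.655 and 0.651 for H2-Eb1, 0.673 and 0.711 for H2-DMa and 0.536 and 0.556 for H2-Ab1. Of these 4 genes H2-Ab1 no longer passed the adjustment then (adjusted p 0.136 and 0.102), nor with rho. For Ciita r was 0.235 and 0.188 (permutation p 0.134 and 0.265, adjusted p 0.573 and 0.681), with rho 0.12 and 0.116 (permutation p 0.447 and 0.492, adjusted p 0.812 and 0.866). It was 0.161 and 0.0217 without the 2 farthest arrays. Within the batches of each diet r with Cd74 ran from 0.86 to 0.943 for H2-Aa, from 0.615 to 0.751 for H2-Eb1, from 0.702 to 0.825 for H2-DMa, from 0.484 to 0.673 for H2-Ab1 and from -0.224 to 0.372 for Ciita. H2-Ab1 and H2-Eb1, the 2 beta chains, had an r with each other of 0.919 on CD and 0.898 on HFD, as a description.

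**Figure D5:**
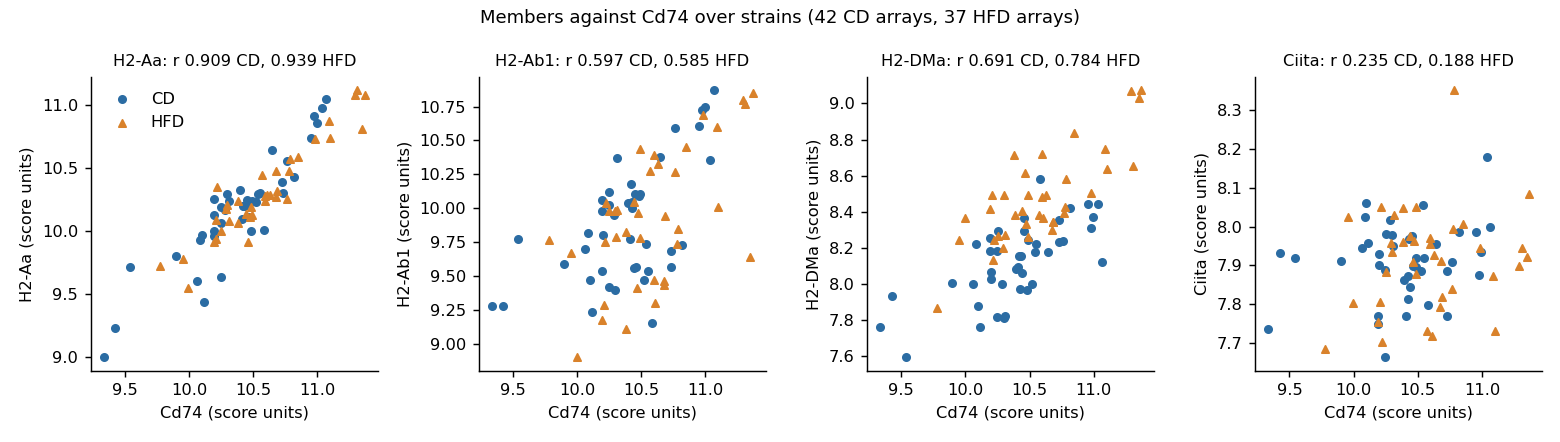
H2-Aa, H2-Ab1, H2-DMa and Ciita against Cd74 in score units, with circles for 42 CD arrays and triangles for 37 HFD arrays. H2-Aa follows Cd74 closely (r 0.909 and 0.939), H2-Ab1 less so (r 0.597 and 0.585), and Ciita shows little relation (r 0.235 and 0.188).

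The 3 genes outside the set with the largest r with Cd74 on CD were Laptm5, a lysosomal membrane protein of blood-derived cells (r 0.773), Unc93b1, a chaperone of endosomal Toll-like receptors (r 0.764), and Retnla, a secreted product of alternatively activated macrophages (r 0.758). Over the HFD arrays r was 0.781, 0.72 and 0.694.

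Against the mean of the 24 markers of macrophages, dendritic cells and B cells, r on CD ran from 0.216 (Ciita) to 0.506 (H2-Eb1) over the 6 members, of which 0 passed the adjusted permutation test and 4 had an unadjusted p below 0.05, beside 0.501% of all probesets called. On HFD r ran from -0.0242 (Ciita) to 0.56 (Cd74), and 1 of 6 passed, beside 0.813%. This was Cd74 (permutation p 0.00032, adjusted p 0.0439), with a rho of 0.494 (permutation p 0.0023, adjusted p 0.171) and an r of 0.447 (adjusted p 0.368) without the 2 farthest arrays. On CD Cd74 had an r of 0.497 and a rho of 0.398 (permutation p 0.00066 and 0.00982, adjusted p 0.0841 and 0.299), and 0.395 without the 2 farthest arrays. Its r within batches 1 and 2 was 0.186 and 0.692 on CD and 0.587 and 0.564 on HFD.

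The markers of antigen-presenting cells moved with diet in both directions, beside the rise of H2-DMa. Of the 11 macrophage markers, 5 rose on HFD, 1 fell and 5 did not pass, and the counts of this and the next lists stand beside 38.1% of all probesets called and 18.9% called higher. Cd68, a lysosomal glycoprotein, rose by 0.39 units (limma SE 0.0725, adjusted p 1.09e-05), Adgre1, which encodes F4/80, rose by 0.37 (limma SE 0.0615, adjusted p 8.66e-07), while the Fc receptor gene Fcgr1 fell by 0.0984. The mean of the macrophage markers ran from 8.138 to 8.655 units on CD and from 8.217 to 8.86 on HFD. Of the 7 dendritic cell markers 2 rose and 1 fell, and of the 6 B cell markers 0 rose and 3 fell. The median difference was 0.103, -0.0662 and -0.0312 units in these 3 lists. Of the T cell markers 1 rose and 3 fell of 7, and of the endothelial markers 4 rose and 0 fell of 6. With strain as a block 6 macrophage markers rose and 1 fell, 2 dendritic cell markers rose and 2 fell, and 1 T cell marker rose and 2 fell. These counts stand beside 40.6% of all probesets called and 20.7% called higher. The part of these cells in the rise of H2-DMa was not tested.

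Adipocyte genes also moved with diet. Adipoq, which encodes adiponectin, rose by 0.54 units (limma SE 0.141, adjusted p 0.00143) and Lep, which encodes leptin, by 1.58 (SE 0.185, limma adjusted p 5.02e-11). Of the 5 adipocyte genes 3 rose and Cfd fell by 0.61 units, beside the same 38.1% called and 18.9% called higher, and the mean of the list ran from 8.758 to 10.564 units on CD and from 8.945 to 10.956 on HFD. Of the 8 muscle genes 1 rose, Mb, which encodes myoglobin, by 0.13 units. The part of adipose tissue in the values of the members was not tested.

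Of 20 other genes of the class II pathway, 7 rose on HFD, 2 fell and 11 did not pass, with a median difference of 0.0657 units, beside 38.1% of all probesets called and 18.9% called higher. With strain as a block 9 rose and 2 fell, beside 40.6% of all probesets called and 20.7% called higher. Among the peptide-exchange genes, H2-DMb2, the partner of H2-DMa, rose by 0.24 units (SE 0.0381, limma adjusted p 4.98e-07), from a median of 7.974 to 8.251, and H2-Oa, a chain of the inhibitor of H2-DM, fell by 0.105 (limma adjusted p 0.00917). Among the proteases, Ctss, which trims the invariant chain, rose by 0.35 units (SE 0.0635, limma adjusted p 5.25e-06), with Ctsb at 0.16 (limma adjusted p 9.68e-06) and Lgmn at 0.14 (limma adjusted p 0.00241). Of 6 factors that bind class II promoters 2 rose, Nfya by 0.14 units (limma adjusted p 0.000176) and Rfx5 by 0.10 (limma adjusted p 0.00135). The other 4 did not pass, with Nfyb at 0.098, Rfxap at 0.0514, Nfyc at -0.0177 and Rfxank at -0.0249, and of these Nfyb passed with strain as a block (limma adjusted p 0.0163). Cd80, a costimulatory ligand, rose by 0.31 units (limma adjusted p 3.24e-08), while Cd86 and Cd40 were at 0.0088 and 0.0129. Cd80 had 2 probesets, and only the one with the higher mean was used. Marchf1, a ubiquitin ligase that removes class II from the surface, fell by 0.104 units (limma adjusted p 0.00462).

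Of 9 genes of interferon gamma signalling, the known inducer of Ciita, 2 rose, Ifngr2 by 0.0752 units and Irf8 by 0.0897, and 0 fell, beside 18.9% of all probesets called higher. With strain as a block 3 rose and 1 fell, beside 40.6% of all probesets called and 20.7% called higher. Ifng itself differed by -0.0429 (limma adjusted p 0.323). Of 10 neighbours in the MHC region 2 rose, 1 fell and 7 did not pass, beside 38.1% of all probesets called and 18.9% called higher. H2-K1, a class I heavy chain, rose by 0.19 units (limma adjusted p 0.01) and the complement gene C4b by 0.34 (limma adjusted p 3.33e-05). Btnl2, an inhibitor of T cell activation, fell by 0.111 (limma adjusted p 0.00397). In the block fit 3 neighbours rose and 2 fell, beside 40.6% of all probesets called and 20.7% called higher. The class I antigen transporter genes Tap1 and Tap2 were at -0.0639 and -0.000549, and Psmb8 and Psmb9 of the immunoproteasome at 0.0597 and -0.017.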

How the data were processed

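Quadriceps RNA from 79 strain-by-diet pools was hybridised to Affymetrix Mouse Gene 1.0 ST arrays, and the submitters' processing notes name Affymetrix Expression Console. The authors deposited a score for each probeset, which averages 8.0 with a standard deviation of 2.0 on any array, and the log base, summarization and any batch correction are not given in the sources used here. Tests planned for log2 data were applied to the scores. Array medians ran from 7.783 to 7.922. An array has no read depth, and the number of arrays limits the precision. The titles name 2 batches, of 35 and 44 arrays, and do not say what a batch was. The submitters' extraction protocol describes sets of the same sizes with separate extraction and array run times.

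Diet was fitted with limma 3.58.1 in R 4.3.3 (lmFit and eBayes, diet and batch as terms) over all probesets, with Benjamini-Hochberg adjustment and a threshold of 0.05. The limma parental fit had a term per strain. Permutation tests were two-sided with 100000 draws, 1e-05 being the smallest p possible. Clusters required a BIC fall of at least 10 and Ashman's D above 2 (scikit-learn 1.9.0). Arrays of a strain pair by the strain named in the labels; their deviations correlated with a median r of 0.214, above 0.1 in 33 of 37 strains. Fits were tested on simulated data. Alternatives covered batch, block, strains, tests, normalization and dim probesets.

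The members and lists were chosen with earlier results of these data known. The rule for named genes took the members, the genes of the lists, the 3 genes most like H2-Ea-ps and Cd74, and strains that cross a gap. Which list genes are given with values was chosen after the values were seen, and the other list genes stand only in the counts. The lists held 20 pathway, 9 interferon gamma, 10 neighbour, 24 antigen-presenting cell, 7 T cell, 6 endothelial, 5 adipocyte and 8 muscle genes. The values of 1 listed gene are not reported here, though it counts in its list's total. The column BXD92 was assigned to the sample with the title BXD92a.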

Additional observations from a re-analysis of the deposited data

Results flagged for a closer look

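The parental difference of Ciita had opposite signs on the 2 diets: C57BL/6J minus DBA/2J was -0.033 units on CD and 0.017 units on HFD. Each value comes from 1 array per strain, and the difference between the diets was not tested.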

How the results depend on the processing

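H2-DMa was called in all 15 fits of the diet comparison, between 0.309 and 0.371 units. The count of members called was 4 of 7 with strain as a replicate block, 4 with this block and without BXD63, 2 with it and without BXD48 and BXD100, and 1 in the other fits. Fits without BXD48 and BXD100, and without BXD63 in the block and in the correlations with Cd74 and the markers, were added after the data were seen. Without both strains H2-Ab1 turned to -0.00678 units, Ciita to -0.00148, and H2-Ab1 to -0.00361 with the block. The methods' t-test gave an unadjusted p below 0.05 for 2 members and an adjusted one for 1. Of the pathway list 5 of 20 genes were called in batch 1 alone and 6 in the fit without dim probesets, against 9. Over all probesets 13551 were called for diet, against 4491 in batch 1, 8691 in batch 2 and 5292 of 17778 without dim probesets. In the parental comparison 447 probesets were called, and 4 with the 4 parental arrays alone, where limma called 0 members and 4 had an unadjusted p below 0.05. Ciita turned to 0.0045 units with median centring and to 0.00539 with quantile normalization. The limits of the small subsets are set by the permutations: with 100000 draws, an adjusted p below 0.05 needs at least 8 probesets at the smallest p, so a count of 0 in a batch says nothing about stability. For the cross-diet r, 1 of 6 members passed in batch 1, 1 in batch 2 and 0 over 8 strains with arrays in different batches (unadjusted p below 0.05 in 5, 4 and 0 by permutation), against 4. Ciita turned to -0.0674 and -0.121 in the last 2. For r with the marker list, quantile normalization gave 2 of 6 on CD and 2 on HFD, while rho, leaving out 2 arrays, and each batch gave 0 on HFD against 1. H2-DMa turned to -0.168 in batch 1 on CD, and Ciita to 0.0339 with rho and 0.0613 in batch 1 on HFD. For r with Cd74, 0 of 5 passed in batch 1 on CD and in each batch on HFD, against 4, and Ciita turned to -0.224 in batch 2 on HFD. Clusters were the same on HFD arrays and after quantile normalization. Each member has 1 probeset, so no other probeset could be tried.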
